A study of Mus musculus with 6 samples.

Results

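The chemokine genes Ccl2, Ccl5, Ccl7, Ccl9 and Ccl20 of the CC family and Cx3cl1, the gene of fractalkine, were examined in the mouse mammary tumour line 4T1. They are 6 of the 23644 genes in the deposited table and were chosen by gene symbol through their Ensembl identifiers. RNA sequencing was done on 3 libraries of wild type cells, called control here, and 3 libraries of Carmil3 knockout cells. All 6 came from cultured 4T1 cells without a further treatment named in the labels. Per the labels the knockout cells were clones that grew from single cells. The labels leave out the method of knockout, the number of clones and whether the replicates were separate cultures. The p-values therefore measure only the spread between these libraries, and that spread may be technical. A difference between the groups cannot be told apart from a difference between clones.

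Chemokines are small secreted proteins that guide leukocytes along concentration gradients. CC chemokines carry adjacent cysteines near the amino terminus and signal through G protein-coupled CCR receptors. Fractalkine is made as a chemokine domain on a membrane-anchored mucin-like stalk. It can be cleaved to a soluble form and binds CX3CR1. In tumours, CC chemokines made by the cancer cells are known for drawing in monocytes, macrophages and T cells. Many of their genes are induced by NF-kB and related factors, and several of their messenger RNAs are short-lived because proteins bind A- and U-rich elements or stem-loops behind the coding region.

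The promoters of Ccl20 and Cx3cl1 are shown because these genes had the largest ratio upward and the only fall among the tested members. They come from RefSeq (GRCm38.p6) and cover 300 bases around the start annotated there, on the plus strand at chr1:83116516-83116815 and chr8:94771930-94772229. For Ccl20 this start is also the gene start in the GENCODE annotation. The GENCODE gene start of Cx3cl1, 94772009, lies before the RefSeq start. The Cx3cl1 window therefore holds fewer bases before the GENCODE start than the Ccl20 window does. Promoters of 3 of the 6 genes were in the table used (Ccl9, Ccl20 and Cx3cl1), and Ccl2, Ccl5 and Ccl7 were not in it. Capitals mark matches on either strand to 4 motifs. The first, GGGNNNNNCC, is a loose frame for sites of the NF-kB family of transcription factors. The next, TGANTCA, is the element known from AP-1 factors such as Fos and Jun. The TATA box was searched as TATAA, a core promoter element near many start sites. The GC box was searched as GGGCGG, which factors of the Sp family are known to bind.
Ccl20: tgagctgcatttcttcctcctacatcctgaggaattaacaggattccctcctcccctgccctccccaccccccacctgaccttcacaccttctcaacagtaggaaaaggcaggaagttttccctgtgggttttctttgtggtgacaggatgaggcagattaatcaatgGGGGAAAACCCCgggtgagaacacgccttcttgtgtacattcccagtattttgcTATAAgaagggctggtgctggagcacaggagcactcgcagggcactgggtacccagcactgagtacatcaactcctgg
Cx3cl1: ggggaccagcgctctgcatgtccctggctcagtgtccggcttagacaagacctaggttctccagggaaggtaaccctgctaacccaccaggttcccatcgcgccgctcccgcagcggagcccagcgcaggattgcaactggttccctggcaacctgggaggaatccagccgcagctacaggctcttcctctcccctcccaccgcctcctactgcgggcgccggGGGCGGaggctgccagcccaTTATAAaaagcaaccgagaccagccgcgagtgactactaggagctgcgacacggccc

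The Ccl20 promoter held 4 overlapping matches to the NF-kB frame in 1 stretch beginning 82 bases before the start and a TATAA match 28 bases before it. The Cx3cl1 promoter held a GC box 27 bases before the RefSeq start. Overlapping TATAA matches of both strands began 7 and 6 bases before that start, much nearer to it than in Ccl20. No match to the NF-kB frame or the AP-1 element was found in the Cx3cl1 window, and bases further upstream were not searched. The Ccl9 promoter, of a gene with lower values in the knockout libraries, held 1 match to the NF-kB frame, 1 to the AP-1 element and 5 to TATAA. The frame is common: 50.8% of the 32851 mouse promoters of this length held it, as 24.9% held TATAA, 35.7% the GC box and 7.8% the AP-1 element. A match describes letters only, and no binding was measured. The GC content was 52.7% for Ccl20, which equals the median of all promoters, and 64.7% for Cx3cl1.

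Pentamers of the type bound by messenger RNA decay factors are shown for the 4 tested members whose 3′ end, from the stop codon to the end of the transcript, held any. The letters are those of GENCODE M21 transcripts on GRCm38, 27 bases each, with every ATTTA on the sense strand in capitals.
Ccl2: atattaaacttATTTAacttattgatg
Ccl7: ttaatatttttATTTAattagccatgt
Ccl20: gatATTTAatgttctgtttATTTAatt
Cx3cl1: agtgaacaattATTTAttggattccca

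The 3′ end of Ccl20 was the densest, with 9 ATTTA pentamers in 1050 bases, 8.57 per kilobase and above 98.9% of mouse protein-coding transcripts with at least 200 bases there. Ccl7 had 2 in 435 bases, Ccl2 had 1 in 275 bases, Cx3cl1 had 1 in 1871 bases and Ccl5 had none in 199 bases. In the last 200 bases Ccl20 held 2, Ccl7 held 1 and Ccl2 and Cx3cl1 held none, where 36.0% of 17795 transcripts held at least 1.

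In the knockout cells 4 members were higher and 1 was lower. Ccl2 rose 4.76-fold, Ccl5 2.74-fold and Ccl7 5.78-fold as ratios of mean FPKM (reads or fragments scaled by exon length and library size), Ccl20 went from near 0 to 2.76 FPKM, and Cx3cl1 fell to 0.546 of its control level. Ccl9 was too low to be tested. The 5 tested members were all called at an adjusted p under 0.05, 4 higher and 1 lower, by limma on log2(FPKM + 1), with p-values adjusted over the whole table by the Benjamini-Hochberg method. Of the 11171 genes tested, 35.6% were called in this comparison, 16.9% higher and 18.7% lower. A member could be tested only with at least 1 FPKM in at least 3 libraries. Ccl7 and Ccl20 reached that only in the knockout libraries, so they had to differ in order to be tested, and the count of called members is no support by itself. In bulk RNA, fewer cells that make a transcript and less of it per cell cannot be told apart.

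Carmil3 itself was near the lower limit of detection in every library, with a control mean of 0.0241 ± 0.0122 FPKM and a knockout mean of 0.0120 ± 0.0120 FPKM (SD, n = 3). Control replicates 1 to 3 had 0.0360, 0.0246 and 0.0117 FPKM, knockout replicates 0, 0.0118 and 0.0241 FPKM, and the groups overlapped, so Carmil3 itself gives no check of the genotype labels. The step between low values gave read totals between 17778410 and 19046096 per library. Of the epithelial markers, 6 of 6 were present and all 6 fell, with summed levels of 1009 to 1101 FPKM in control and 427.5 to 471.6 FPKM in knockout libraries. Of all genes tested 18.7% were called lower. Krt7, Krt14, Epcam and Cdh1 passed the filter through the control libraries alone and had to differ to be tested, so this count is no support by itself. Leukocyte markers summed to between 1.11 and 1.46 FPKM in control and 0.985 and 1.63 FPKM in knockout libraries, and 0 of the 8 in the table reached 1 FPKM in 3 libraries. Most of that sum was Lyz2, a lysozyme gene, and the pan-leukocyte gene Ptprc had means of 0.00305 and 0.00100 FPKM. Endothelial markers stayed under 0.1 FPKM in all libraries, 4 of 4. The fibroblast list summed to 11.5 to 12.2 FPKM in control and 17.8 to 18.3 FPKM in knockout libraries. In that list Pdgfra rose (log2 difference 0.75) and Col1a1 fell (log2 difference -0.97), and the defining markers Dcn and Col1a2 had means of at most 0.154 FPKM. The part of this list in the chemokine differences was not tested. Knockout replicate 3 lay apart from the other knockout libraries on the second principal component, at -15.55 against 6.73 and 9.56.

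**Figure D1:**
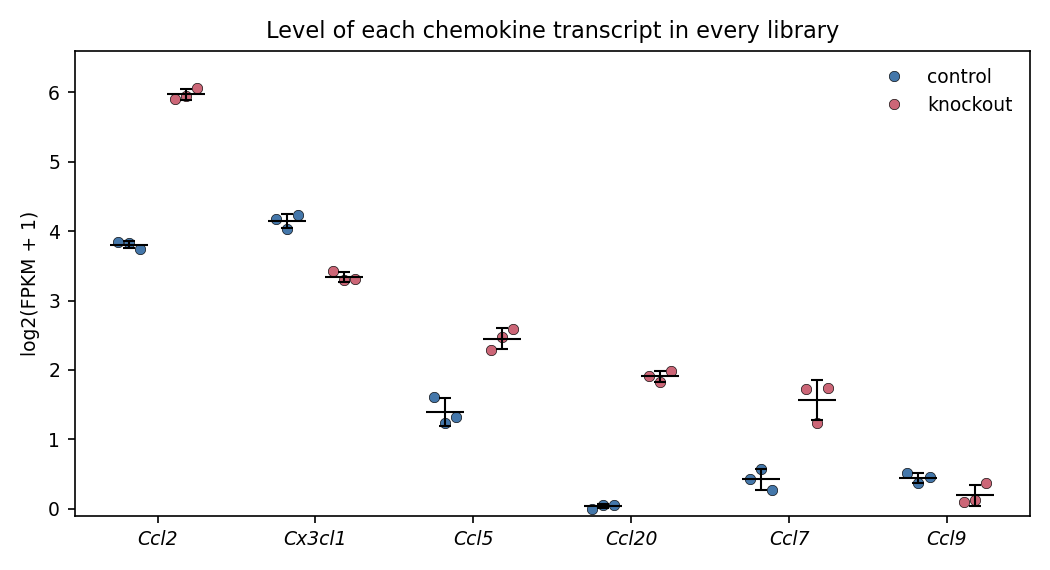
Level of each of the 6 transcripts as log2(FPKM + 1), with 1 point per library, a bar at the group mean and error bars of 1 SD (n = 3). Knockout points lie above control points for Ccl2, Ccl5, Ccl7 and Ccl20 and below them for Cx3cl1 and Ccl9. The groups do not overlap for any of the 6, and they also do not overlap for 50.5% of all genes tested.

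Ccl2 encodes MCP-1, the main attractant of CCR2-bearing monocytes. Its control replicates 1 to 3 measured 13.4, 13.1 and 12.4 FPKM and its knockout replicates 59.0, 60.8 and 65.8 FPKM. The highest control value was far below the lowest knockout value, and the spread was small in both groups, at 13.0 ± 0.492 and 61.9 ± 3.55 FPKM (SD, n = 3). The log2 difference of (FPKM + 1), knockout minus control, was 2.17 with a standard error of 0.0592, a 95% interval of 2.03 to 2.30 and an adjusted p of 6.56e-08 by limma. It ranked 10 of the 11171 genes tested, counted from the largest rise. The level moved from between the 81.8 and 82.9 percentile of all listed genes in control libraries to between the 96.7 and 97.0 percentile in knockout libraries.

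Ccl2 lies on chromosome 11 at 82035571 to 82037453 on the plus strand (GRCm38). The annotated gene Gm17268 overlaps it on the opposite strand and was not analysed here, and the strand setting of the counting is unknown, so reads of the pair cannot be told apart. The recovered reads for Ccl2 were 277, 266 and 265 in control and 1278, 1281 and 1359 in knockout libraries, more than for any other member in the knockout libraries.

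Ccl7 encodes MCP-3, another attractant of monocytes that acts on CCR2 and other receptors. Its control replicates 1 to 3 measured 0.343, 0.492 and 0.200 FPKM and its knockout replicates 2.29, 1.35 and 2.34 FPKM. Knockout replicate 2 was the lowest of its group and still above every control library. The log2 difference of (FPKM + 1) was 1.14 with a standard error of 0.149, a 95% interval of 0.80 to 1.48 and an adjusted p of 0.000596 by limma. These values rest on few reads, 5, 7 and 3 in control and 35, 20 and 34 in knockout libraries. The ratio of pooled reads per total was 5.83, with a 95% exact binomial interval of 3.35 to 10.8 that covers counting error only.

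Ccl7 starts 10.1 kb downstream of Ccl2 (chromosome 11, 82045712 to 82047525, plus strand) and was much the weaker of the pair. The ratio of Ccl2 to Ccl7 in FPKM was 42.6 ± 17.99 in control and 33.0 ± 10.6 in knockout cells (SD, n = 3; two-sided exact permutation test, p = 0.6). A change in that ratio was not detectable with so few Ccl7 reads. The smallest p that 3 against 3 libraries allow is 0.1.

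Ccl5, which encodes RANTES, an attractant of T cells and monocytes, measured 2.06, 1.35 and 1.502 FPKM in the control replicates and 3.88, 4.56 and 4.996 FPKM in the knockout replicates. The groups did not overlap. Control replicate 1 lay nearest to the knockout libraries, and the means were 1.64 ± 0.376 and 4.48 ± 0.561 FPKM (SD, n = 3). The log2 difference of (FPKM + 1) was 1.06 with a standard error of 0.116, a 95% interval of 0.80 to 1.32 and an adjusted p of 0.00022 by limma. Reads numbered 36, 23 and 27 in control and 71, 81 and 87 in knockout libraries. Ccl5 is on chromosome 11 at 83525778 to 83530518 on the minus strand. Its rise was smaller than that of Ccl2, and the ratio of Ccl2 to Ccl5 in FPKM went from 8.18 ± 1.64 to 13.9 ± 1.11 without overlap (SD, n = 3; exact permutation p = 0.1, the smallest possible).

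Ccl20 encodes MIP-3 alpha, the ligand of CCR6 on dendritic cells, B cells and Th17 cells. Control replicates 1 to 3 had 0, 0.0396 and 0.0376 FPKM, and knockout replicates 1 to 3 had 2.77, 2.55 and 2.95 FPKM. In reads these are 0, 1 and 1 against 75, 67 and 76, so the transcript was at the floor of detection in control cells and clearly counted in all knockout libraries. The log2 difference of (FPKM + 1) was 1.87 with a standard error of 0.0805, a 95% interval of 1.69 to 2.05 and an adjusted p of 9.73e-07 by limma. The added 1 FPKM shrinks this difference. The ratio of pooled reads was 107, with a 95% exact binomial interval of 29.3 to 889, which shows how little the 2 control reads fix its size. Ccl20 is on chromosome 1 at 83116766 to 83119167 on the plus strand, away from the other members. In the order of the log2 differences it was number 17 from the highest.

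Of all genes tested, 0.949% were both called higher and had a log2 difference of at least 1, and Ccl2, Ccl5, Ccl7 and Ccl20 were among them. That size depends on the added 1 FPKM for the low members: with a pseudocount of 0.1 the log2 differences of Ccl5, Ccl7 and Ccl20 were 1.41, 2.25 and 4.52, and with 5 they were 0.51, 0.39 and 0.63. For Ccl2 they were 2.24 and 1.89. The members were chosen with earlier results of these data known, and Ccl7 and Ccl20 passed the filter through the knockout libraries alone. The place of the members among the 0.949% is therefore no support by itself.

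Cx3cl1 went the other way. The control replicates measured 17.03, 15.3 and 17.9 FPKM and the knockout replicates 9.74, 8.84 and 8.88 FPKM. All control libraries were above all knockout libraries, and the means were 16.8 ± 1.30 and 9.15 ± 0.508 FPKM (SD, n = 3). The log2 difference of (FPKM + 1) was -0.80 with a standard error of 0.0705, a 95% interval of -0.97 to -0.64 and an adjusted p of 5.86e-05 by limma. Its counts were the highest of the 6 in control libraries, 1217, 1072 and 1316 reads, against 729, 643 and 633 in knockout libraries.

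Cx3cl1 lies on chromosome 8 at 94772009 to 94782427 on the plus strand, and genes around it were lower too. The median log2 difference of its 40 nearest tested genes was -0.25, and it was -0.22 for the 399 genes of chromosome 8 that averaged 5 FPKM or more. The nearest tested genes on either side, Arl2bp and Ciapin1, fell with log2 differences of -0.51 and -0.32. After subtraction of the median of its neighbours the fall of Cx3cl1 was -0.55 and was still called (adjusted p = 0.000599, limma). The neighbour medians of the other tested members were nearer 0, at -0.03 for Ccl2 and Ccl7, -0.08 for Ccl5 and 0.02 for Ccl20.

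Ccl9 encodes MIP-1 gamma, a CCR1 ligand. The control replicates measured 0.433, 0.296 and 0.368 FPKM and the knockout replicates 0.0690, 0.0887 and 0.290 FPKM. Knockout replicate 3 lay just under the lowest control library, and the other knockout libraries were well below it. The gene did not reach 1 FPKM in any library and was not in the fit. The means of 0.366 ± 0.0690 and 0.149 ± 0.122 FPKM (SD, n = 3) gave p = 0.1 in a two-sided exact permutation test, the smallest possible. The reads were 24, 16 and 21 against 4, 5 and 16. Fitted without the filter, its log2 difference was -0.25 with an adjusted p of 0.14 by limma. Ccl9 is on chromosome 11 at 83572919 to 83578636 on the minus strand.

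The groups did not overlap for any of the 5 tested members, and they also did not overlap for 50.5% of all genes tested. FPKM are scaled by exon length, so comparisons between genes depend on the length used. All annotated exons joined come to 1138 bases for Ccl2, 960 for Ccl5 and 3930 for Cx3cl1. The longest coding transcripts of these genes have 813, 532 and 3315 bases, and for Ccl7 both lengths are 801. The orders, shares and ratios between genes given here hold for the deposited FPKM only. In control cells the order by mean FPKM was Cx3cl1, Ccl2, Ccl5, Ccl9, Ccl7 and Ccl20, where Ccl9 and Ccl7 did not differ beyond their spread. In knockout cells it was Ccl2, Cx3cl1, Ccl5, Ccl20, Ccl7 and Ccl9, and the ranges of neighbours in that order did not overlap.

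The makeup of the group changed with it. The 6 transcripts together summed to 33.3, 30.7 and 32.4 FPKM in control and 77.7, 78.2 and 85.3 FPKM in knockout replicates 1 to 3. Of that sum Cx3cl1 made up 52.1% ± 2.68 in control and 11.4% ± 1.06 in knockout cells (SD, n = 3), and Ccl2 made up 40.5% ± 2.27 and 76.9% ± 0.974. The ratio of Ccl2 to Cx3cl1 in FPKM was 0.786, 0.857 and 0.695 in control and 6.05, 6.88 and 7.41 in knockout replicates 1 to 3. In FPKM, Cx3cl1 was thus above Ccl2 in every control library and far below it in every knockout library (exact permutation p = 0.1, the smallest possible). The order in control libraries was close and depends on the gene lengths used. The share of Ccl5 was 5.08% ± 0.981 and 5.56% ± 0.490 (SD, n = 3; exact permutation p = 0.5), and that of Ccl20 was 0.0817% ± 0.0710 and 3.43% ± 0.156.

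**Figure D2:**
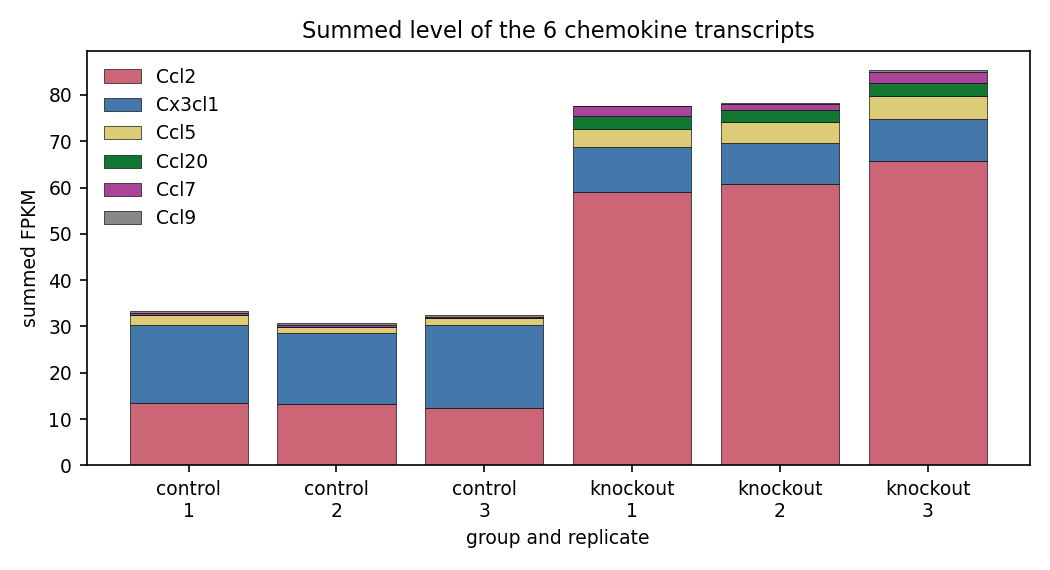
Summed FPKM of the 6 transcripts in each library, with 1 bar per library divided by gene. The control bars end between 30.7 and 33.3 FPKM and hold more Cx3cl1 than Ccl2, and the knockout bars end between 77.7 and 85.3 FPKM and are mostly Ccl2.

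All members but Ccl20 sit in chemokine gene clusters, and most of the neighbouring family genes were close to 0 in both groups. In the cluster that begins with Ccl2, the eosinophil attractant gene Ccl11 and the genes Ccl8 and Ccl1, 22.3, 79.6 and 141.1 kb further, reached at most 0.0971, 0.212 and 0.0222 FPKM in any library. In the cluster with Ccl5 and Ccl9, the genes Ccl6, Ccl3 and Ccl4 reached at most 0.208, 0.147 and 0.0809 FPKM. Next to Cx3cl1, Ccl22 and Ccl17, which encode ligands of CCR4, reached at most 0.0474 and 0.547 FPKM. Outside the clusters of protein-coding chemokines, the tested genes flanking the Ccl2 and Ccl7 pair, Psmd11 and Zfp830, fell with log2 differences of -0.27 each, and Taf15 and Heatr6, which flank Ccl5 and Ccl9, were not called (adjusted p = 0.283 and 0.171, limma). Agfg1 and Trip12, the tested neighbours of Ccl20, were not called either (adjusted p = 0.915 and 0.734, limma). Some of these flanking genes are distant. Between starts, Psmd11 lies 1606956 bases from Ccl2, Zfp830 718633 bases from Ccl7 and Trip12 1604423 bases from Ccl20. Nearer were Agfg1, 277283 bases from Ccl20, Heatr6, 180777 bases from Ccl9, and Taf15, 52692 bases from Ccl5.

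**Figure D3:**
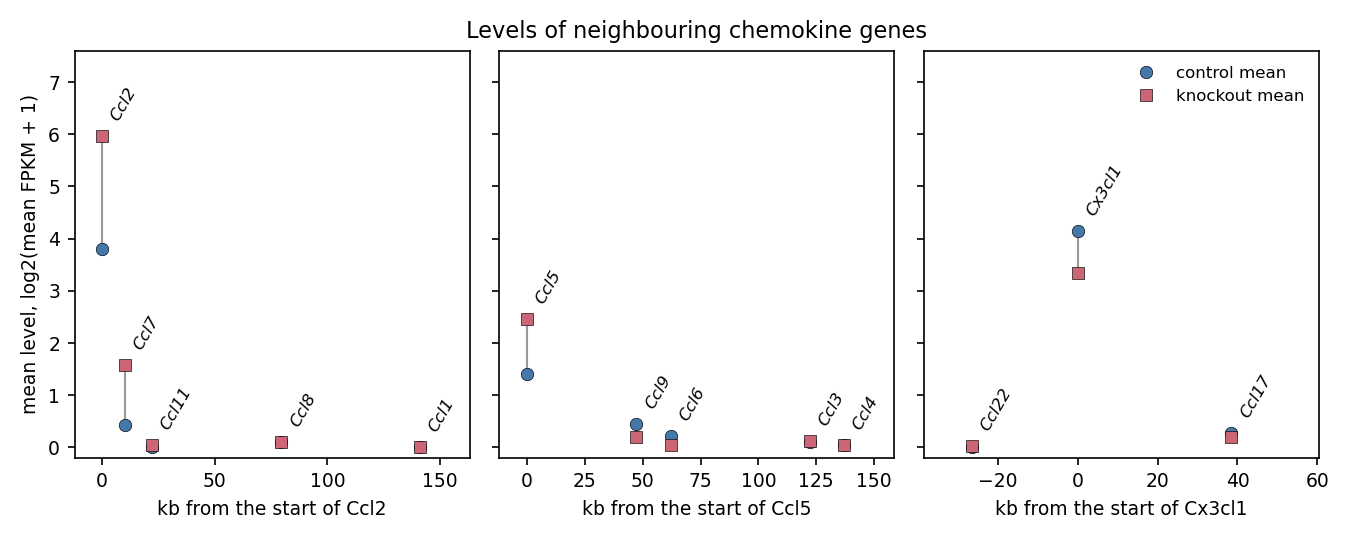
Mean level of each chemokine gene, as log2(mean FPKM + 1), against its distance in kb from the start of Ccl2, Ccl5 or Cx3cl1, with circles for control and squares for knockout means (n = 3). Ccl2, Ccl5 and Cx3cl1 stand above 1 FPKM in both groups and Ccl7 in the knockout group alone, and all other genes plotted, Ccl9 included, lie below 1 FPKM in both.

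Of the wider list of 23 CC, XC and CX3C ligands, 16 were in the table and 6 were tested, and the only tested one outside the 6 genes was Ccl25. Ccl25, which encodes the CCR9 ligand TECK, measured 1.33 ± 0.110 and 1.32 ± 0.158 FPKM (SD, n = 3), a log2 difference of 0.00 with adjusted p = 0.979 by limma; its sign turns under some settings. Several receptors of the members were barely detected. Ccr1, Ccr2, Ccr6 and Cx3cr1, which encode receptors for the products of Ccl9, of Ccl2 and Ccl7, of Ccl20 and of Cx3cl1, had means of at most 0.0278 FPKM in either group. Of 17 receptor genes 12 were in the table and 2 were tested. Ccrl2, an atypical chemoattractant receptor that does not signal like the classical ones, rose from 0.105 ± 0.0348 to 1.68 ± 0.285 FPKM (SD, n = 3), a log2 difference of 1.27 with adjusted p = 2.81e-05 by limma, and passed the filter through the knockout libraries alone. Ackr3, a scavenging receptor for CXCL12, measured 3.13 ± 0.268 and 3.58 ± 0.436 FPKM (SD, n = 3; adjusted p = 0.229, limma).

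Genes that cleave or shed chemokines went both ways. Of 11 in the list, 7 were tested, 2 rose and 3 fell, and the median log2 difference was -0.13 against -0.01 for all genes tested. Shares called among all genes tested were 16.9% higher and 18.7% lower, and a count in so short a list is no result by itself. Mmp9, the gelatinase B gene, and Mmp3, the stromelysin-1 gene, rose with log2 differences of 1.20 and 0.41. The proteases that release fractalkine from the membrane are ADAM10 and ADAM17. Adam10 fell from 41.0 ± 2.01 to 35.9 ± 0.878 FPKM (SD, n = 3; adjusted p = 0.0282, limma), and this call did not hold when 1 of 4 libraries was left out: the adjusted p was 0.103 and 0.0751 without the first or the second control library, 0.0704 and 0.0583 without the first or the second knockout library, and 0.06 when no filter was used. Adam17 measured 21.4 ± 0.746 and 20.5 ± 0.780 FPKM (SD, n = 3; adjusted p = 0.429, limma). Rhbdf1 and Rhbdf2, the iRhom partners of ADAM17, fell with log2 differences of -0.35 and -0.34, and Rhbdf1 was no longer called once centred on its neighbours (adjusted p = 0.0621, limma).

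Genes of the list of induction factors, which also holds inhibitors of NF-kB, were mostly higher. Of 23 genes of NF-kB, other inducers of chemokine genes and NF-kB inhibitors, 20 were tested. Of these 13 rose, 2 fell and 5 were not called, with a median log2 difference of 0.28. Of all genes tested 16.9% were called higher. The list was chosen with earlier results of these data known, so its count is no result by itself. Against a 1.5-fold change 3 of the 20 tested genes were called. The 13 include Cebpd, the gene of a C/EBP transcription factor, which passed the filter through the knockout libraries alone (0.362 ± 0.0172 and 1.34 ± 0.116 FPKM; SD, n = 3) and was named after its values were seen. The largest rises by adjusted p were those of Nfkbiz, Nfkbia and Bcl3, which encode IkB proteins that are themselves NF-kB targets. Nfkbiz rose from 3.81 ± 0.0701 to 17.6 ± 0.580 FPKM, Nfkbia from 16.6 ± 0.920 to 48.6 ± 2.63 FPKM and Bcl3 from 2.06 ± 0.189 to 8.26 ± 0.179 FPKM (SD, n = 3). Their log2 differences were 1.95, 1.49 and 1.60. Rela, which encodes the p65 subunit, measured 25.6 ± 2.08 and 24.5 ± 0.407 FPKM (SD, n = 3; adjusted p = 0.512, limma). The falls were those of Chuk (log2 difference -0.24), an IkB kinase gene, and Rel (-0.24). Chuk was no longer called when the first control, the second control or the first knockout library was left out (adjusted p = 0.07, 0.0502 and 0.0554). Rel was not called in 10 of 16 alternatives, among them the test against a 1.5-fold change.

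Of 12 genes of chemokine messenger RNA decay and stability, all were tested, 3 rose, 1 fell and 8 were not called, with a median log2 difference of 0.06. The share called among all genes tested was 35.6%, so this count is no result about the list by itself. Zc3h12a, the gene of the ribonuclease Regnase-1 and itself inducible, rose from 2.36 ± 0.301 to 8.24 ± 0.121 FPKM (SD, n = 3), a log2 difference of 1.47 with adjusted p = 2.88e-06 by limma. Zfp36, which encodes the pentamer-binding decay factor tristetraprolin, measured 2.70 ± 0.150 and 2.69 ± 0.321 FPKM (SD, n = 3; adjusted p = 0.943, limma). Its relative Zfp36l1 fell (log2 difference -0.37) and Tia1 and Khsrp rose (0.33 and 0.24). Once centred on their neighbours these 3 were not called, with adjusted p = 0.368, 0.204 and 0.312 (limma). Khsrp was also not called when no filter was used (adjusted p = 0.0578) or when the first or second control library (0.062 and 0.0609) or the first or second knockout library (0.0762 and 0.0622) was left out.

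Heparan sulfate chains hold chemokines at cell surfaces. Of 13 genes of their synthesis and editing, 9 were tested, 1 rose, 3 fell and 5 were not called, with a median log2 difference of -0.13. Among all genes tested 16.9% were called higher and 18.7% lower, and a count in so short a list is no result by itself. Hs6st1, a 6-O-sulfotransferase gene, fell from 8.44 ± 0.289 to 5.69 ± 0.408 FPKM (SD, n = 3), with adjusted p = 0.000612 by limma. The chain polymerase gene Ext1 and Extl3 fell (log2 differences -0.25 and -0.31) and Hs2st1 rose (0.18). Once centred on their neighbours these 3 had adjusted p = 0.226, 0.801 and 0.0941 (limma) and were not called. Extl3 was also not called without the first or the third control library (adjusted p = 0.0662 and 0.0657) or with no filter (0.0641). Hs2st1 was not called without the first control, the third control or the second knockout library (0.07, 0.0528 and 0.0672). Leaving out the first or the third control library left 2 called genes in the list.

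**Figure D4:**
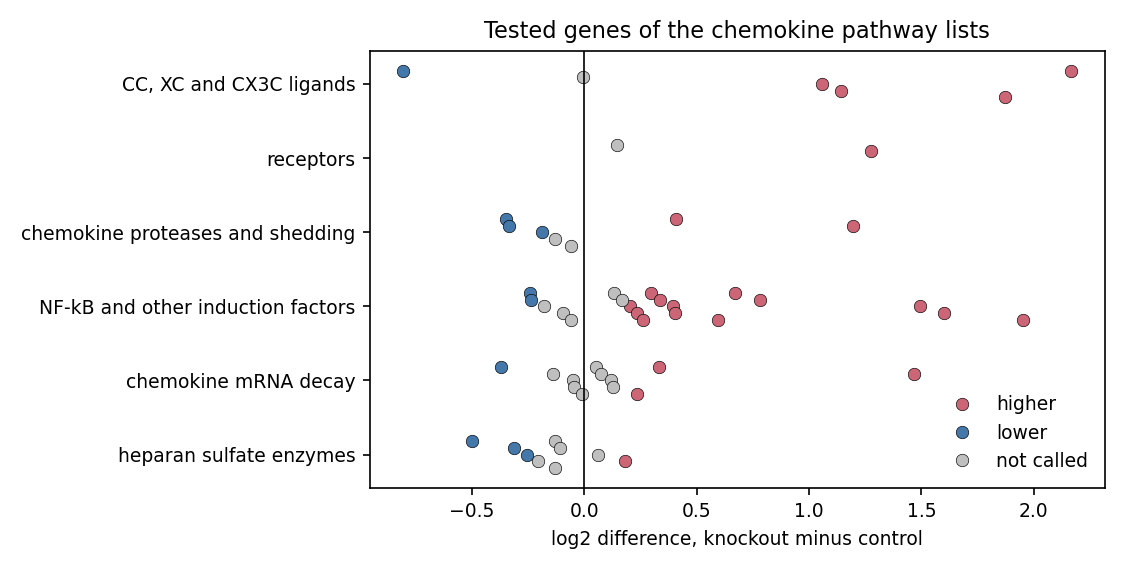
Log2 difference of (FPKM + 1), knockout minus control, for the tested genes of 6 pathway lists, with 1 point per gene coloured by its call (limma, adjusted p under 0.05; n = 3 per group). Points of the NF-kB list lie mostly to the right of 0, and the decay, protease and heparan sulfate lists lie on both sides.

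The transcripts whose pattern over the 6 libraries was most like that of each member were found by Pearson correlation of log2(FPKM + 1) over the 7323 genes averaging 5 FPKM or more. Because the groups stand apart, such a value mainly reflects the group difference, and many genes share it: 92 genes were at 0.99 or above with Ccl2, 102 with Ccl20, 73 with Cx3cl1, 9 with Ccl5 and 6 with Ccl7. For Ccl2 the closest were the neutrophil chemokine gene Cxcl1 (r = 0.9999) and the lipocalin-2 gene Lcn2 (0.9993). Ccl20 was closest to Adssl1, an adenylosuccinate synthase gene, and to Csf3, the gene of granulocyte colony-stimulating factor (0.9994 each). For Cx3cl1 these were Ezr, the gene of the membrane-actin linker ezrin (0.9986), and the quinone reductase gene Nqo1 (0.9982). Ccl5 was closest to the ephrin gene Efna4 (0.9971) and Dgcr2 (0.9969), and Ip6k2, an inositol hexakisphosphate kinase gene, was among the closest to Ccl7 (0.9962). Of the genes named here as most alike, Dgcr2 was not called between the groups (adjusted p = 0.0617, limma).

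With a filter of 5 FPKM only Ccl2 and Cx3cl1 could be tested, and both were called. Under a test against a 1.5-fold change instead of no change, Ccl2 and Ccl20 stayed called, and Ccl5 (adjusted p = 0.0531, limma), Ccl7 (0.0821) and Cx3cl1 (0.195) did not. Of the named genes of the other lists, Ccrl2, Mmp9, Nfkbiz, Nfkbia, Bcl3 and Zc3h12a stayed called in that test. Leaving out any 1 library kept the calls of all 5 tested members. Their log2 differences then ranged from 2.12 to 2.20 for Ccl2, 0.98 to 1.17 for Ccl5, 1.05 to 1.31 for Ccl7, 1.83 to 1.91 for Ccl20 and -0.86 to -0.76 for Cx3cl1. In a fit of limma-voom on the recovered reads the differences of Ccl7 and Ccl20 were 2.46 and 6.11.

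**Figure D5:**
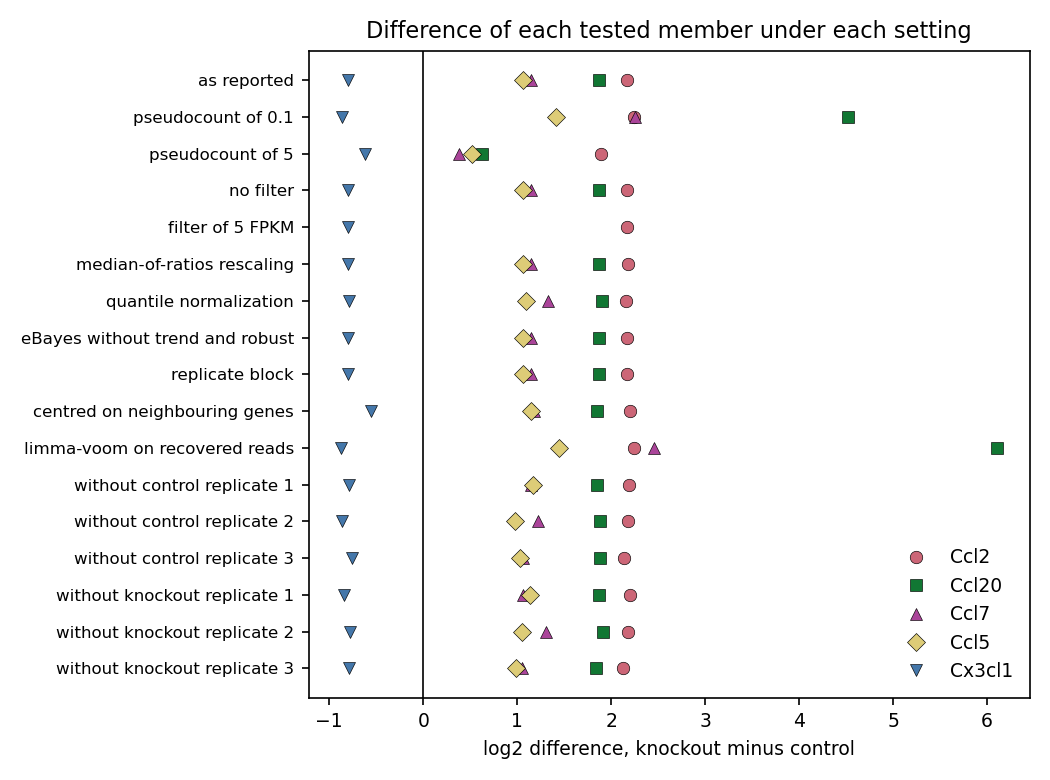
Log2 difference, knockout minus control, of the 5 tested members under each setting, leaving out the 1.5-fold test, with 1 symbol per gene. Cx3cl1 stays left of 0 and the others right of 0 throughout, and Ccl7 and Ccl20 move most with the pseudocount and with the recovered reads.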

How the data were processed

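The authors deposited 1 table of FPKM for 6 libraries; this unit was inferred from the values. Not given in the sources used here: strand setting, annotation release and the use of reads or fragments. The submitters' processing notes name CASAVA, Bowtie, Bowtie2, TopHat, TopHat2 2.0.12, HTSeq 0.6.0 and build mm10, without their roles. GENCODE M21 (GRCm38, the same build as mm10) gave a symbol for 23587 of 23644 identifiers. Multiplying FPKM by exon length gave approximate reads: 92.0% to 92.2% of the values of up to 500 reads were whole within 0.02 of a read. The summed reads came to between 108.7% and 109.1% of the total used, so depths are approximate.

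Knockout was tested against control on log2(FPKM + 1) by limma 3.58.1 (R 4.3.3; eBayes, both trend and robust set) over the 11171 genes that reached 1 FPKM in 3 or more libraries, with Benjamini-Hochberg adjustment and a threshold of 0.05. Untested genes and ratios had exact permutation tests. The fit was tested on simulated data with changes of 1.5-, 2- and 4-fold. It recovered 98.5%, 100% and 100% of these changes and called 10 unchanged genes. The changed genes were well counted and the spread was set in advance. The simulation therefore says nothing about genes with few reads, such as Ccl7 and Ccl20, or about the spread of the real libraries. No pair of libraries within a group was as alike as 1 library deposited under 2 names would be (chi-square of 3.02 to 19.03 per degree of freedom), which does not show that they were separate cultures. The members and lists were chosen with earlier results of these data known. Named genes were the 6 members, tested ligands and receptors, up to 3 called genes per direction and other list, with Rela, Adam17 and Zfp36 and the genes at low levels added after their values were seen, the 2 most alike and the nearest tested genes per member. Alternatives were 2 pseudocounts, 2 filters, 2 rescalings, plain eBayes, a replicate block, a 1.5-fold threshold in the test, centring on the 20 nearest tested genes per side, limma-voom on recovered reads and each library left out. Some genes that this rule or these lists hold are not reported here.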

Additional observations from a re-analysis of the deposited data

How the results depend on the processing

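Low members carry few reads, so the size of their change is uncertain: it moved with the pseudocount and the recovered reads, but no member changed direction in any alternative. Ccl9 had log2 differences of -0.997 to -0.06 over its 10 alternatives. In 9 of these the exact permutation test could not reach the threshold, and the fit by limma without the filter gave an adjusted p of 0.14. With the test set against a 1.5-fold change, 118 genes passed upward and 193 downward. In that setting 2 members and 2 of the ligand list were called, the differences of Ccl5 (1.06), Ccl7 (1.14) and Cx3cl1 (-0.80) were not, and the called genes numbered 1 for the proteases, 3 for the induction factors, 1 for messenger RNA decay and 0 for heparan sulfate. In that last list 9 genes were tested, and 4 were called by limma against no change. With a filter of 5 FPKM only 2 members could be tested and 2 were called, as were 2 of the ligand list, and no receptor was left to test. After centring on neighbouring genes the decay list and the heparan sulfate list had 2 called genes each.

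With 1 library left out, between 1182 and 2041 genes were higher and between 1358 and 2218 lower, the lowest counts being those without control replicate 1. The number of called heparan sulfate genes ranged from 2 to 4. Ccl25 was not called in any setting, and its difference became positive with median-of-ratios rescaling (0.00039), quantile normalization (0.0343), centring on neighbouring genes (0.0447) and on leaving out control replicate 1, control replicate 2 and knockout replicate 3 in turn (0.0162, 0.0166 and 0.0540). With 1 library left out it ranged from -0.0437 to 0.0540.

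Same-numbered libraries did not deviate together in every pair (correlations of -0.0615, 0.149 and 0.0981 for replicates 1 to 3 over 11171 genes). Pairs with different numbers ranged from -0.196 to 0.0776, so the values for replicates 2 and 3 were above all of these. The value for replicate 1 was not. So few pairs cannot decide whether same-numbered libraries share more than a number. With the replicate number as a block 1900 genes were higher and 2127 lower, and the 5 tested members remained called.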
